A study of Mus musculus with 12 samples.

Results

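The contractile and pericyte genes of the vessel wall were examined in brain tissue next to an experimental haematoma. They were 10 genes chosen by symbol, namely Acta2, Myl9, Tagln, Cnn1, Mylk, Myh11, Des, Pdgfrb, Rgs5 and Kcnj8. All 10 had a row among the 21956 genes of the deposited count table. The titles number the 12 libraries from 1 to 3 within each of 4 groups, and each library is taken here as a separate mouse. Only the ICH-fl/fl titles end in a further -1, which the sources used here do not explain. Every group carried floxed Fabp4 alleles. In the Sham-fl/fl and ICH-fl/fl groups Fabp4, a fatty acid-binding protein, was left intact. In the Sham-CKO and ICH-CKO groups a tamoxifen-inducible Cre under the Tmem119 promoter removed it, which in brain acts in microglia. Intracerebral haemorrhage (ICH) was made with collagenase injected into the right striatum, and sham mice had the operation without the enzyme. Tissue from within 1 to 2 mm of the haematoma, in slices of 1 mm, was taken 48 h after ICH, and the sources used here give no time for sham tissue. The age of these floxed mice is not given in the labels.

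Mural cells wrap the outside of blood vessels. Smooth muscle cells ring arteries and arterioles and hold vessel tone through actin and myosin, while pericytes sit on capillaries inside the basement membrane and are kept there by PDGF-B from endothelium, acting on their receptor PDGFRβ. Contraction starts when myosin light-chain kinase phosphorylates the regulatory light chain of myosin, and the contractile genes are a classic target of serum response factor, which binds the CArG box. The Cre is directed at microglia rather than at mural cells, and whole tissue was sequenced. A lower value in these libraries may therefore come from fewer mural cells, from less RNA per cell or from a changed mix of other cells. These cannot be told apart.

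The libraries held 15650813 to 22406216 counts. Fabp4 had 1, 2 and 2 counts in the Sham-fl/fl libraries, 0 in each Sham-CKO library, 24, 46 and 63 in ICH-fl/fl and 3, 5 and 10 in ICH-CKO. Summed counts of Ddx3y, Kdm5d, Eif2s3y and Uty, genes of the Y chromosome, were 1 in ICH-CKO mouse 1 and 1302 to 2251 in the other 11 libraries, so that library stands apart. ICH-CKO was thus the only group to mix libraries with and nearly without Y-linked counts, and the labels give no sex. Calls of named genes lost without ICH-CKO mouse 1 are given, and so are values for Myl9 and Tagln by genotype. ICH-fl/fl mouse 1 had 16.3% of its counts in mitochondrial genes, against 7.90% to 11.9% elsewhere. Levels below are CPM, counts scaled to a common library size after trimmed-mean (TMM) normalisation. They are not scaled by gene length, so each gene is compared with itself across libraries.

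The promoters of Myl9, Acta2 and Mylk are shown because the first of them holds a CArG box in the strict form searched for. The others hold the remaining motif matches found in the group. RefSeq promoter entries (build GRCm38.p6) matched 7 of the 10 genes, and only the 250 bases before each gene's start were read. Capitals mark matches on either strand to the strict CArG box, to TGGGAA (bound by the Notch partner RBPJ) or to CATTCC (bound by TEAD factors). The strict CArG box was CCWWWWWWGG, where W is A or T. Forms with a mismatch were not searched for and stay in small letters. Acta2 holds such forms, CCCTATATGG and CCTTGTTTGG. No match overlapped another.
Myl9: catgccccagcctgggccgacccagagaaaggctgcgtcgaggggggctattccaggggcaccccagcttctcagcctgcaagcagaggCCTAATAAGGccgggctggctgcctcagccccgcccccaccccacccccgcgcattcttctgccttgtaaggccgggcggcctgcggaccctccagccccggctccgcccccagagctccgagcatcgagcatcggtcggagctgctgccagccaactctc
Acta2: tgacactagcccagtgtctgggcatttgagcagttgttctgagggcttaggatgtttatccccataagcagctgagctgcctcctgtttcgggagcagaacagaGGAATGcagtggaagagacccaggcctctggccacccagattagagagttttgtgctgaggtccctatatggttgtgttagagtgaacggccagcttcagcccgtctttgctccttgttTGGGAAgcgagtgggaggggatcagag
Mylk: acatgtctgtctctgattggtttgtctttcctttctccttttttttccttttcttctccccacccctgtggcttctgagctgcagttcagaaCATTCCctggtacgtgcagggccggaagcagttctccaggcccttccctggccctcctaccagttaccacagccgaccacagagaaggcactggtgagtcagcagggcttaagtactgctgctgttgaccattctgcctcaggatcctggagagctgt
The Myl9 sequence lies on the forward strand at chr2:156775214-156775463, the Acta2 sequence on the reverse strand at chr19:34255374-34255623, and the Mylk sequence on the forward strand at chr16:34784700-34784949. The strict CArG box of Myl9, CCTAATAAGG, covered bases 161 to 152 before the start. That strict form was found in 1 of the 7 promoters read, against 1.47% of the 32851 promoters in the reference. It does not show that the other promoters lack a looser CArG box. In Acta2 TGGGAA stood 27 to 22 bases before the start, a motif present in 21.6% of all promoters. CATTCC stood at 146 to 141 bases in Acta2, read on the opposite strand as GGAATG, and at 158 to 153 bases in Mylk, and 12.6% of all promoters held it. These matches describe the letters in a short window and are not evidence of binding.

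In mice with intact Fabp4 the question was how vessel-wall genes stood after haemorrhage. Of the 10 genes, 7 were higher in ICH-fl/fl than in Sham-fl/fl (edgeR quasi-likelihood test, Benjamini-Hochberg adjusted over 14719 genes), and none was lower. Over all genes tested, 26.2% were higher and 19.1% lower. The median difference of the 10 genes was 1.19 on the log2 scale, against 0.02 for all genes. Tagln, Des, Myl9 and Rgs5 rose most. In 8 of the 10 genes every ICH-fl/fl mouse lay above every Sham-fl/fl mouse, as did 34.4% of all genes. Summed choroid plexus and ependymal markers were 860, 1599 and 3129 CPM in the Sham-fl/fl mice and 32.3 to 52.7 CPM in ICH-fl/fl. The part of this difference in tissue was not tested.

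Among the contractile genes, Tagln, which encodes the actin-binding protein transgelin (SM22α), stood at 9.40, 9.26 and 8.26 CPM in the Sham-fl/fl mice and 293, 334 and 89.5 CPM after ICH. The sham mice lay close together, whereas ICH-fl/fl mouse 3 was far below the other two and still above all sham mice. The log2 difference was 4.68 ± 0.49 (SE), a 25.7-fold rise, with an adjusted p of 0.000694 from edgeR. Myl9, the regulatory light chain of smooth muscle myosin, was at 17.5, 16.9 and 12.2 CPM in sham mice and 72.6, 67.5 and 41.3 CPM after ICH, without overlap. It rose by 1.91 ± 0.24 (adjusted p = 0.00122, edgeR).

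Des, the intermediate filament desmin, was low in sham tissue at 2.41, 2.85 and 1.497 CPM and reached 20.1, 9.85 and 7.17 CPM after ICH, a log2 rise of 2.40 ± 0.44 (adjusted p = 0.00518, edgeR). Acta2, the actin of smooth muscle, went from 25.0, 21.7 and 12.6 CPM to 80.9, 42.6 and 27.4 CPM. All ICH mice were above all sham mice, but mouse 3 of ICH-fl/fl exceeded the highest sham mouse only narrowly. Its log2 difference was 1.29 ± 0.41 (adjusted p = 0.0373, edgeR), and the call was lost when any library other than ICH-fl/fl mouse 3 was left out (adjusted p 0.0577 to 0.111).

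The remaining contractile genes did not pass. Mylk, the kinase that phosphorylates the light chain, stood at 18.02, 17.9 and 10.3 CPM in sham and 36.5, 24.6 and 18.9 CPM after ICH, and its difference of 0.74 ± 0.30 had an adjusted p of 0.0754 (edgeR). The Mylk groups did not overlap, and the gene passed when ICH-fl/fl mouse 3 was left out (adjusted p = 0.0309, edgeR). Myh11, the heavy chain specific to smooth muscle, was at 14.4, 14.6 and 7.64 CPM against 23.6, 11.5 and 11.95 CPM. The Myh11 groups overlapped, the difference was 0.31 ± 0.35 (adjusted p = 0.489, edgeR), and it was -0.090 without ICH-fl/fl mouse 1. Cnn1, the actin-binding protein calponin, had only 2 to 36 counts in any library, with CPM of 1.11, 0.767 and 0.207 in sham and 1.20, 2.24 and 0.850 after ICH. The Cnn1 groups overlapped and a difference was not detected (0.98 ± 0.64, adjusted p = 0.235, edgeR).

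All 3 pericyte genes rose. Rgs5, a regulator of G-protein signalling that marks brain pericytes, was the most abundant by CPM, at 114, 108 and 84.3 CPM in sham and 455, 295 and 257 CPM after ICH (1.68 ± 0.25, adjusted p = 0.00215, edgeR). Pdgfrb, the receptor for PDGF-B, went from 33.2, 25.5 and 30.3 CPM to 79.4, 59.4 and 49.0 CPM (1.03 ± 0.19, adjusted p = 0.00558, edgeR). Kcnj8, the pore of the ATP-sensitive potassium channel of pericytes, went from 5.16, 5.26 and 3.25 CPM to 13.6, 7.98 and 8.40 CPM (1.09 ± 0.30, adjusted p = 0.0218, edgeR). None of these 3 genes overlapped between groups, and Kcnj8 lost its call without any sham mouse in turn or without ICH-fl/fl mouse 1 (adjusted p 0.0516 to 0.0654).

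**Figure D1:**
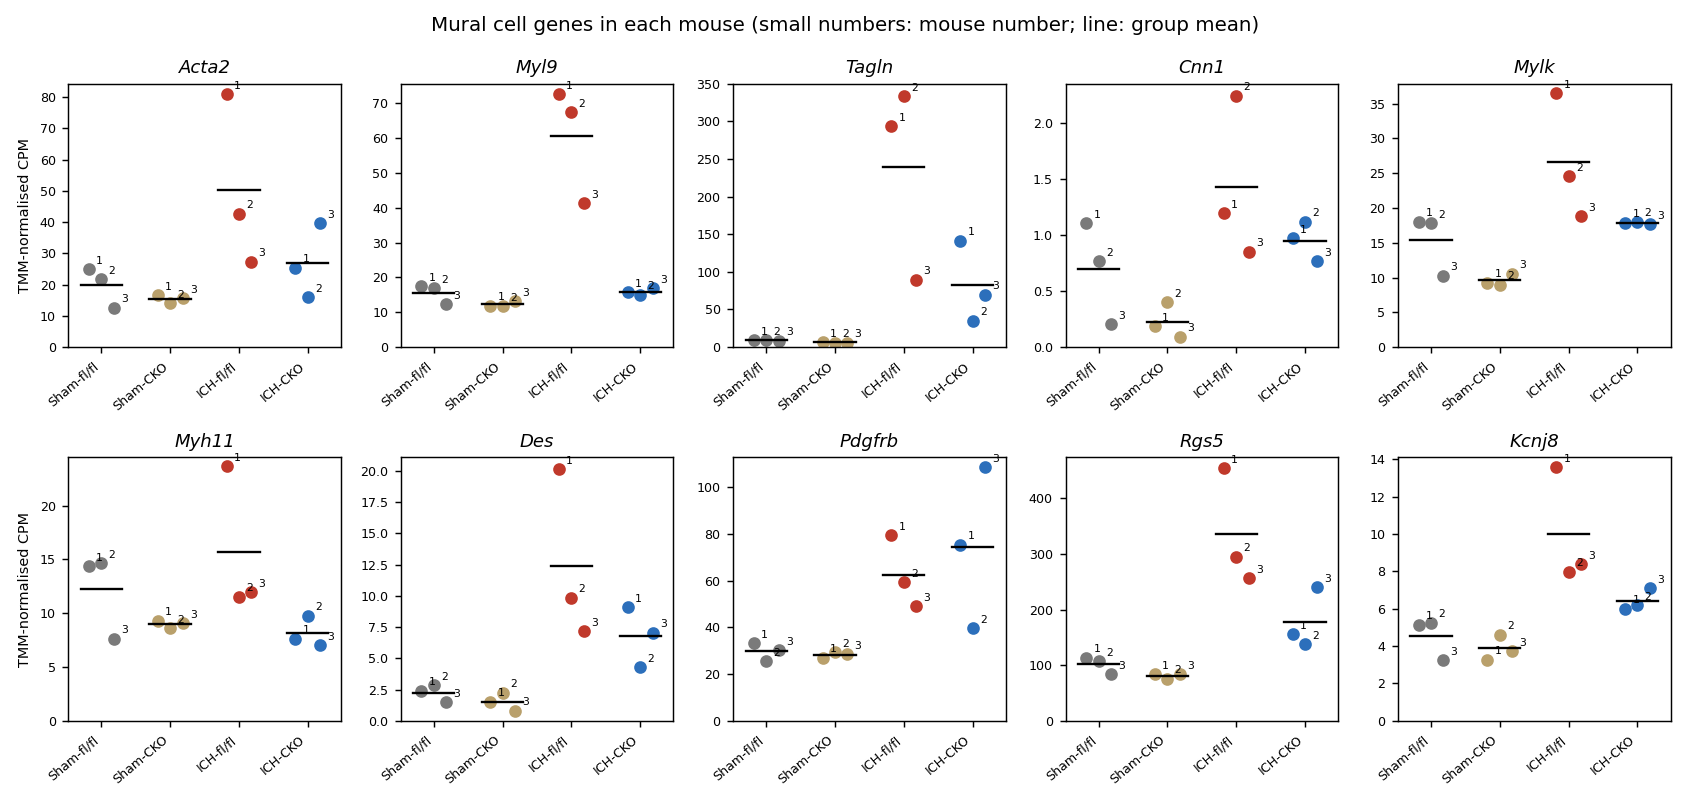
Level of each gene in each mouse, in TMM-normalised CPM on linear axes from 0, with the 4 groups along the horizontal axis. Points are single libraries numbered by mouse and lines are group means. Myl9 in the ICH-CKO mice (15.1 to 16.9 CPM) lies below all ICH-fl/fl mice (41.3 to 72.6 CPM), whereas Pdgfrb overlaps between them.

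The spread among ICH-fl/fl mice had an order shared by most of the genes. Mouse 1 was highest for 8 of the 10 genes and mouse 3 lowest for 8. In Sham-fl/fl, mouse 1 was highest for 7 genes and mouse 3 lowest for 9. The summed level of 10 endothelial markers followed the same order in ICH-fl/fl, at 2001, 1236 and 837 CPM, and was 438, 427 and 356 CPM in Sham-fl/fl. All 10 endothelial markers passed as higher after ICH in fl/fl mice, among them Cldn5, a tight-junction protein, by 2.44, and Pecam1 by 2.39. The summed level of 10 fibroblast markers was 116 to 155 CPM in Sham-fl/fl and 202 to 534 CPM in ICH-fl/fl, with 5 of 10 passing as higher. Platelet markers, since platelets carry Myl9, summed to 2.26 to 3.12 CPM in Sham-fl/fl and 17.3 to 59.8 CPM in ICH-fl/fl. Skeletal muscle markers stayed at 1.03 to 4.32 CPM in all 12 libraries. The part of these cell types in the results was not tested.

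In Fabp4 CKO mice the same question gave 7 of 10 genes higher after ICH than in Sham-CKO, and again none lower. Over the 14737 genes tested, 23.7% were higher and 9.93% lower. The median of the 10 genes was 1.01, against 0.01 for all genes, and 8 of the 10 had groups that did not overlap in the upward direction, as had 33.2% of all genes. Mylk and Cnn1 passed here and Acta2 and Myl9 did not, which by itself does not show a difference between genotypes; that was tested with the interaction.

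Tagln was at 6.75, 6.13 and 5.84 CPM in Sham-CKO and 142, 35.2 and 69.9 CPM in ICH-CKO, a difference of 3.72 ± 0.53 (adjusted p = 0.00875, edgeR). Des went from 1.53, 2.24 and 0.827 CPM to 9.11, 4.32 and 7.05 CPM (2.15 ± 0.45, adjusted p = 0.0203, edgeR). Cnn1 had 2 to 9 counts in Sham-CKO and 14 to 21 in ICH-CKO (2.04 ± 0.53, adjusted p = 0.0341, edgeR). These 3 genes did not overlap between groups.

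Mylk was tightly grouped, at 9.25, 8.999 and 10.6 CPM in Sham-CKO and 17.9, 18.1 and 17.7 CPM in ICH-CKO, and rose by 0.90 ± 0.13 (adjusted p = 0.00895, edgeR). Myl9 was at 11.9, 11.8 and 13.1 CPM against 15.8, 15.1 and 16.9 CPM. Its groups did not overlap, but the difference of 0.38 ± 0.13 had an adjusted p of 0.0643 (edgeR). It passed without ICH-CKO mouse 2 (adjusted p = 0.0231, edgeR). Acta2 ranged from 14.0 to 16.6 CPM in Sham-CKO and stood at 25.4, 15.9 and 39.6 CPM in ICH-CKO, where mouse 2 lay inside the sham range (0.81 ± 0.33, adjusted p = 0.0963, edgeR). Without that mouse the Acta2 difference was 1.08 with an adjusted p of 0.00195 (edgeR). Myh11 was at 8.60 to 9.29 CPM in Sham-CKO and 7.63, 9.75 and 7.05 CPM in ICH-CKO, and the difference was -0.14 ± 0.18 (adjusted p = 0.543, edgeR).

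Of the pericyte genes, Pdgfrb went from 27.0, 29.3 and 28.4 CPM in Sham-CKO to 75.4, 39.5 and 109 CPM in ICH-CKO (1.40 ± 0.35, adjusted p = 0.0318, edgeR). Rgs5 went from 84.3, 75.6 and 84.0 CPM to 156, 138 and 240 CPM (1.13 ± 0.23, adjusted p = 0.0192, edgeR), and Kcnj8 from 3.28, 4.61 and 3.72 CPM to 6.01, 6.18 and 7.11 CPM (0.73 ± 0.21, adjusted p = 0.0414, edgeR). All 3 rose without overlap. The count of 7 fell to 0 when any Sham-CKO mouse was left out, where no gene of the whole table passed either, to 2 (Tagln and Mylk) without ICH-CKO mouse 1, and to 4 without ICH-CKO mouse 3. It was 9 without ICH-CKO mouse 2. Summed fibroblast markers in ICH-CKO were 1238, 161 and 2474 CPM and myeloid markers 6362, 1441 and 11164 CPM, both lowest in mouse 2, which was also lowest for 6 of the 10 genes, whereas mouse 3 was highest for 5. The part of these cells was not tested.

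**Figure D2:**
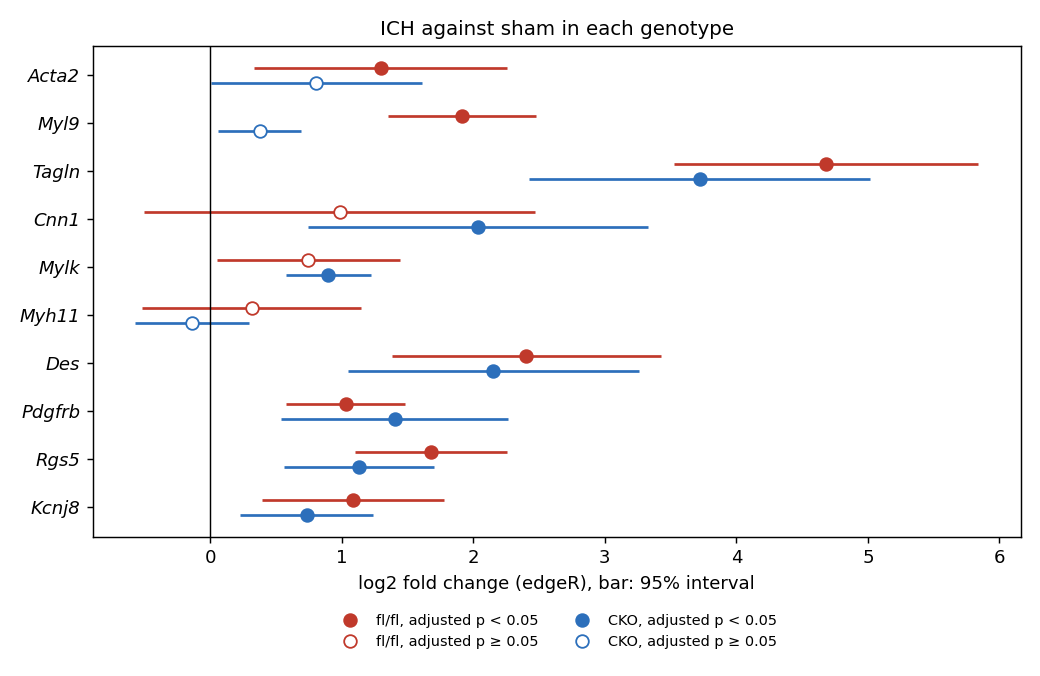
Differences between ICH and sham on the log2 scale for each gene (horizontal axis), with 95% intervals as bars, in fl/fl and in CKO mice. Filled points passed the edgeR test. Tagln has the largest value in both genotypes, 4.68 and 3.72, and Myl9 is at 1.91 in fl/fl and 0.38 in CKO mice.

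Next the genotypes were compared after haemorrhage. No gene of the 14600 tested passed in ICH-CKO against ICH-fl/fl (edgeR quasi-likelihood test, smallest adjusted p = 0.136), so percent called was 0 in both directions and none of the 10 genes was called. At an unadjusted p under 0.05, 3 of the 10 were lower and none higher (Myl9, Myh11 and Rgs5), against 5.68% lower and 6.09% higher among all genes. DESeq2 called 1 of the 10, Myl9, as lower, and over all genes it called 323 lower and 255 higher. The difference was negative for 9 of the 10 genes, with a median of -0.81 against 0.06 for all genes, of which 56.2% were positive. In 5 of the 10 (Myl9, Mylk, Myh11, Rgs5 and Kcnj8) every ICH-CKO mouse lay below every ICH-fl/fl mouse, as was the case for 11.5% of all genes.

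Myl9 stood furthest apart. The ICH-CKO mice were at 15.8, 15.1 and 16.9 CPM and the ICH-fl/fl mice at 72.6, 67.5 and 41.3 CPM. The difference was -1.86 ± 0.23 with a 95% interval of -2.41 to -1.32, and Myl9 ranked 8th of the 14600 genes by p. Its adjusted p was 0.186 in edgeR, with a range over the alternatives of 4.21e-09 (DESeq2) to 0.73. It was 0.00679 in an edgeR fit over all 12 libraries and 0.669 without ICH-CKO mouse 1, where the difference was -1.86. Measured against Pdgfrb within each library, the ratio of Myl9 to Pdgfrb counts was 0.844 to 1.14 in ICH-fl/fl, 0.156 to 0.381 in ICH-CKO and 0.404 to 0.661 in the 6 sham libraries. Within ICH-CKO the ratio was 0.209, 0.381 and 0.156 in mice 1, 2 and 3. Pdgfrb itself stood at 75.4, 39.5 and 109 CPM in these mice, and summed fibroblast markers at 1238, 161 and 2474 CPM. The part of Pdgfrb and of fibroblasts in the ratio was not tested.

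The other genes had wider intervals. For Rgs5 the difference was -0.85 with a 95% interval of -1.61 to -0.10 (unadjusted p = 0.0328, adjusted p = 0.385, edgeR), and for Myh11 it was -0.88 (-1.67 to -0.10, the same p values). Tagln differed by -1.47 with an interval of -3.04 to 0.10, and ICH-CKO mouse 1 at 142 CPM exceeded ICH-fl/fl mouse 3 at 89.5 CPM. Without ICH-CKO mouse 1 the Tagln difference was -2.11 (adjusted p = 0.669, edgeR).

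The intervals of Acta2 (-1.97 to 0.32), Des (-1.88 to 0.30), Cnn1 (-1.65 to 0.60), Mylk (-1.10 to 0.07) and Kcnj8 (-1.20 to 0.05) all covered 0. Pdgfrb was the exception in sign, at 0.31 (-0.61 to 1.23), and it turned to -0.063 without ICH-CKO mouse 3, whose 109 CPM was the highest of any library. The summed endothelial markers were 619, 484 and 539 CPM in ICH-CKO, below all ICH-fl/fl mice, and all 10 endothelial markers had negative differences, of which 0 passed. Their part in the results was not tested. Summed markers of oligodendrocytes, the myelin-forming cells, stood at 8397, 9269 and 5531 CPM in ICH-CKO against 21846, 19031 and 14447 CPM in ICH-fl/fl, and 0 of these 4 markers passed.

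**Figure D3:**
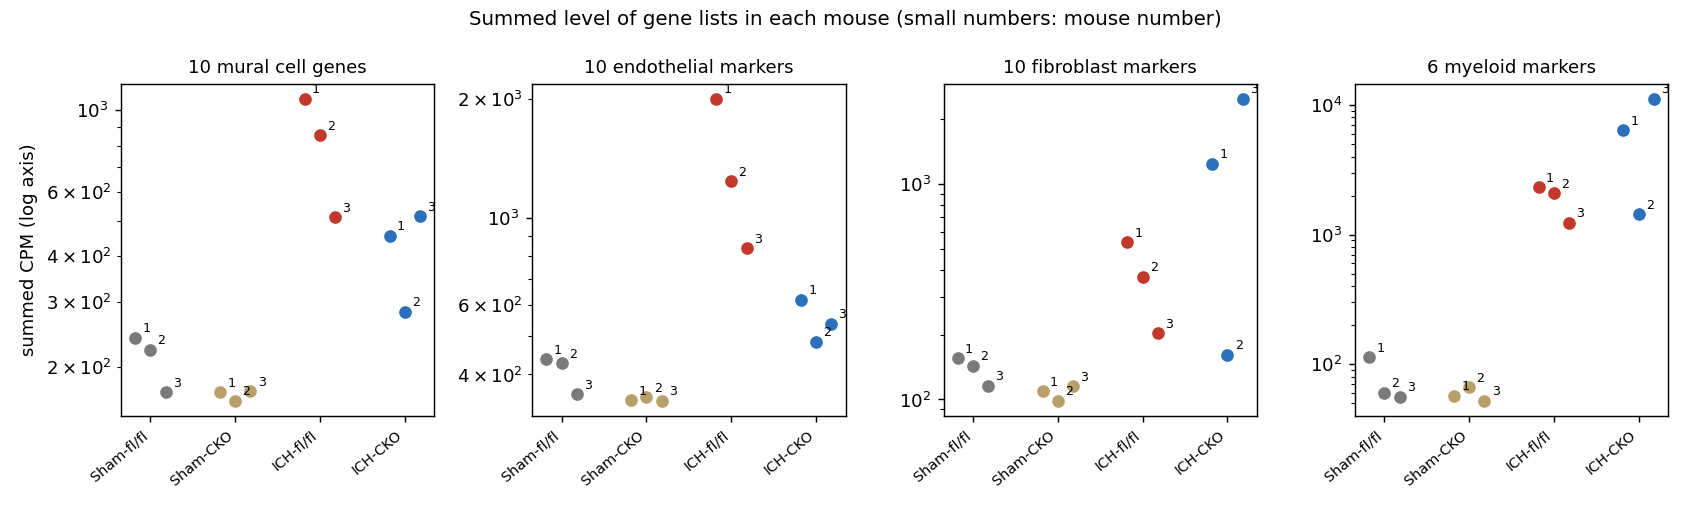
Summed CPM of the 10 mural cell genes and of endothelial, fibroblast and myeloid markers in each mouse, on log axes, with the 4 groups along the horizontal axis and points numbered by mouse. The endothelial sums of the ICH-CKO mice (484 to 619 CPM) lie below those of all ICH-fl/fl mice (837 to 2001 CPM), whereas the fibroblast sums overlap.

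The genotypes were also compared in sham mice. Among the 14395 genes tested 8 passed, all lower in CKO, which is 0.0556%, and none was among the 9 genes of the group that were tested. Cnn1 fell below the filter. All 9 had negative differences, with a median of -0.34 against 0.0026 for all genes, of which 50.4% were positive. At an unadjusted p under 0.05, 3 of the 9 were lower and none higher, against 5.77% and 4.11% of all genes. Only Tagln did not overlap, at 9.40, 9.26 and 8.26 CPM in Sham-fl/fl against 6.75, 6.13 and 5.84 CPM in Sham-CKO (-0.51 ± 0.14, unadjusted p = 0.00581, adjusted p = 0.396, edgeR), and 8.86% of all genes did so downward. Mylk differed by -0.67 ± 0.22 (adjusted p = 0.476, edgeR) and Rgs5 by -0.31 ± 0.12 (adjusted p = 0.492, edgeR).

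This comparison turned on Sham-fl/fl mouse 3. Without it 7 of the 10 genes passed as lower in Sham-CKO, namely Acta2, Myl9, Tagln, Mylk, Myh11, Rgs5 and Cnn1, while 1541 genes of the table were higher and 1351 lower. Mylk then differed by -0.88 (adjusted p = 0.00173, edgeR), Myh11 by -0.67 (adjusted p = 0.00567) and Acta2 by -0.58 (adjusted p = 0.00915). Summed choroid plexus and ependymal markers in that mouse were 3129 CPM, against 860 and 1599 CPM in the other Sham-fl/fl mice and 63.4 to 74.2 CPM in Sham-CKO. Of the 10 fibroblast markers all had negative differences in sham and 7 did not overlap, with sums of 116 to 155 CPM in Sham-fl/fl and 98.8 to 115 CPM in Sham-CKO. Of the 10 endothelial markers 9 were negative and 5 did not overlap, with sums of 356 to 438 CPM and 343 to 350 CPM. None of these fibroblast or endothelial markers passed the edgeR test, 7 and 3 of them having an unadjusted p under 0.05. The part of these markers in the result was not tested.

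**Figure D4:**
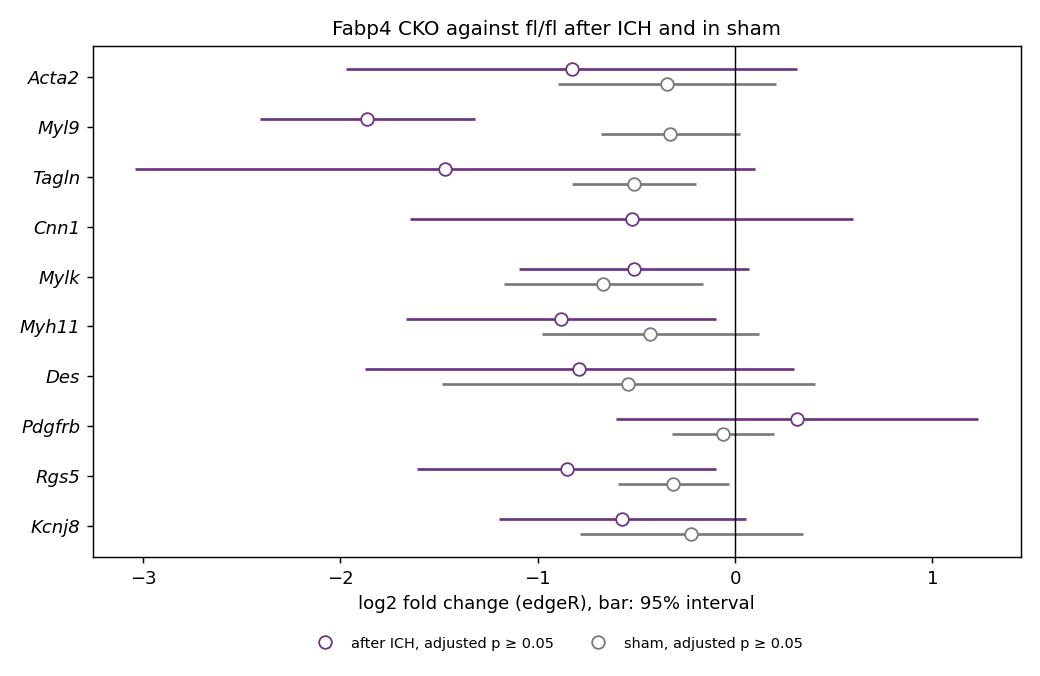
Differences between Fabp4 CKO and fl/fl mice on the log2 scale (horizontal axis) after ICH and in sham mice, with 95% intervals as bars. Open points did not pass the edgeR test. Myl9 is at -1.86 after ICH and at -0.33 in sham mice, and neither difference passed. The interaction, which compares the 2 differences, did not pass for Myl9 in edgeR either.

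Whether the response to ICH differed between genotypes was tested with an interaction term over all 12 libraries. Of 15089 genes 3 passed, which is 0.0199%, and 0 of the 10 genes did so. Of those 3, 2 were among the 5 choroid plexus and ependymal markers, whose sums were 860 to 3129 CPM in Sham-fl/fl. Myl9 had the largest interaction, -1.58 ± 0.29 with a 95% interval of -2.23 to -0.94 (unadjusted p = 0.000229, adjusted p = 0.129, edgeR), and ranked 26th of all genes by p. It passed with DESeq2 (adjusted p = 0.000947) and, with edgeR, without ICH-fl/fl mouse 3 (adjusted p = 0.0315) or without ICH-CKO mouse 2 (adjusted p = 0.0386). Its adjusted p was 0.232 without ICH-CKO mouse 1 and reached 0.385 at most. At an unadjusted p under 0.05 Myl9 was the only one of the 10, against 4.29% of all genes downward and 5.51% upward. The interactions of Tagln (-1.02, interval -2.61 to 0.58), Pdgfrb (0.33, -0.62 to 1.27), Rgs5 (-0.59, -1.38 to 0.20) and Mylk (0.10, -0.69 to 0.90) all had intervals that covered 0.

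A wider set of 68 vessel-wall genes was then read in groups. Over all genes tested, 26.2% were higher and 19.1% lower after ICH in fl/fl mice, and 23.7% higher and 9.93% lower in CKO mice. Of 21 further genes of the contractile apparatus, 20 were tested in fl/fl mice and 10 were higher and 1 lower after ICH. They included Vim, an intermediate filament protein also made by astrocytes and immune cells (5.31 ± 0.43, adjusted p = 0.00039, edgeR), Flna, an actin cross-linker (2.76 ± 0.33), and Rhoa, a GTPase that acts on myosin phosphatase (1.36 ± 0.22). Ppp1r12b, a myosin phosphatase subunit, fell by 1.29 ± 0.23 on the log2 scale. In CKO mice 7 were higher and 1 lower, with Vim at 4.79, Flna at 3.30, Rock1, a kinase downstream of Rhoa, at 1.57, and Vcl at 0.75. Without ICH-CKO mouse 1 Rock1 lost its call (adjusted p = 0.0601, edgeR). Over all 68 genes, 6 were then higher and 0 lower in CKO mice, against 18 and 5 with that mouse. Leaving out any Sham-CKO mouse instead left no gene of the table passing in CKO mice. Calls there, including those named below, were therefore not lost through ICH-CKO mouse 1 alone.

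Of 16 regulators of mural cells, 15 were tested, and 6 were higher and 2 lower in fl/fl mice after ICH. Foxf2, a transcription factor of brain pericytes, rose by 2.02 ± 0.25, and Notch3, the receptor of arterial smooth muscle, by 1.15 ± 0.20 with its partner Rbpj by 0.99 ± 0.16. Zic1, at 131 to 171 CPM in Sham-fl/fl, fell by 2.64 ± 0.28. Summed neuron markers were 4056 to 4807 CPM in Sham-fl/fl and 1316.7 to 3750.5 CPM in ICH-fl/fl. The part of neurons in the lower values was not tested. In CKO mice 4 were higher, a share close to the 23.7% of all genes, and none lower, with Notch3 at 0.88, Rbpj at 1.51, Tbx2 at 1.41 and Foxc1 at 1.44. Without ICH-CKO mouse 1 Rbpj, Tbx2 and Foxc1 lost their calls (adjusted p 0.079, 0.0526 and 0.0823, edgeR). Of 17 channels and receptors of vessel tone, 4 were higher and 2 lower in fl/fl mice and 2 were higher and 3 lower of 16 tested in CKO mice. The shares higher were no greater than those over all genes, 26.2% in fl/fl and 23.7% in CKO mice. S1pr3, a sphingosine-1-phosphate receptor, rose by 3.87 ± 0.32 and 3.44 ± 0.25, and Ednra, the endothelin A receptor, by 1.34 ± 0.27 and 2.38 ± 0.50, in fl/fl and CKO mice. The regulatory subunit that partners Kcnj8, Abcc9, rose by 0.96 ± 0.13 in fl/fl mice, whereas Cacna1c, the L-type calcium channel, which neurons also express, fell by 1.55 ± 0.34 and by 1.07 ± 0.30. Ednra and Cacna1c lost their calls in CKO mice without ICH-CKO mouse 1 (adjusted p 0.0656 and 0.126, edgeR).

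Of 10 other pericyte genes, 7 were higher and none lower in fl/fl mice, against 26.2% and 19.1% of all genes. In CKO mice 3 were higher and 1 lower, close to the shares of all genes, 23.7% and 9.93%. Anpep, an aminopeptidase also found on myeloid cells, rose by 2.72 ± 0.39 in fl/fl and by 6.30 ± 1.06 in CKO mice, where myeloid sums were 1441 to 11164 CPM. Vtn, the matrix protein vitronectin, rose by 1.17 ± 0.18 and Ndufa4l2 by 2.09 ± 0.35 in fl/fl mice. Among 4 PDGF ligands, Pdgfb, which acts on Pdgfrb, rose by 1.44 ± 0.22 in fl/fl and 1.46 ± 0.26 in CKO mice. The CKO call of Pdgfb was lost without ICH-CKO mouse 1 (adjusted p = 0.0579, edgeR).

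In ICH-CKO against ICH-fl/fl none of the genes in these groups passed. The values nearest to passing were those of Vtn (-1.12 ± 0.16, unadjusted p = 0.000316, adjusted p = 0.234, edgeR) and Ppp1r14a, an inhibitor of myosin phosphatase (-1.65 ± 0.24, unadjusted p = 0.000321, adjusted p = 0.234, edgeR). Higd1b, a pericyte marker, differed by -1.79 ± 0.39 and Foxf2 by -1.22 ± 0.30, and Avpr1a, the vasopressin receptor, by 1.82 ± 0.38.

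The profiles of the genes across the 12 libraries were also compared. Likeness was measured as the root mean square difference between profiles of log2 CPM, each centred on its own mean, over 15088 other genes, and is a description over libraries that share groups. The profiles were not scaled to a common spread. Genes that rise in the same groups by different amounts therefore also count as unlike. Nearest to Acta2 were Thsd1 (0.232), Zfp52 (0.238) and Abcg2 (0.248), and of the other 9 genes Rgs5 came nearest, at rank 15, followed by Kcnj8 at rank 114, Mylk at rank 121 and Pdgfrb at rank 1130, with Tagln at rank 13855. Nearest to Pdgfrb were Selenon (0.091), Mob3a (0.118) and Surf4 (0.120), and of the other 9 genes Kcnj8 came nearest, at rank 2185, followed by Rgs5 at rank 2235.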

How the data were processed

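RNA-seq of poly(A) RNA from brain tissue of 12 mice was analysed, 3 per group. The authors deposited estimated counts per gene without normalisation, made from their aligned reads. Of the values, 7.36% to 8.69% per library were not whole. Per the labels, the submitters' processing notes name Bowtie2 2.2.8, HISAT2, StringTie 1.3.1 and DESeq2; the genome build is not given in the sources used here. Counts were rounded. Genes with few counts were removed with edgeR's filterByExpr (minimum count 10, minimum total 15), and each comparison was fitted on its own 6 libraries, or 12 for the interaction, with edgeR 4.0.16 in R 4.3.3 (TMM scaling, robust quasi-likelihood test, Benjamini-Hochberg adjusted p under 0.05). DESeq2 1.42.0 was an alternative. SE is the log2 difference divided by the root of F. Levels used a prior of 2 counts only for log2 profiles. The scripts were tested on simulated counts. Named genes were, beyond the 10, up to 4 genes of each related list with the smallest p among those that passed in a comparison, or up to 2 by unadjusted p where none passed, and those nearest in profile to Acta2 and Pdgfrb. The members and lists were chosen with earlier results of these data known. Labels do not say whether libraries come from separate litters or batches, so p-values measure the spread between these mice. Per-mouse depth limits Cnn1, at 2 to 36 counts. Promoter entries were RefSeq's, read from 250 bases before each start.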

Additional observations from a re-analysis of the deposited data

How the results depend on the processing

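Alternatives were another scaling (RLE, total counts), DESeq2, no filter, at least 10 counts in every library, a replicate block, all 12 libraries in 1 fit, and leaving out each library. Replicate numbers were not used as pairs in the main fits. For ICH against sham in fl/fl mice the correlation of same-numbered mice was 0.196, 0.023 and 0.127, on average 0.115 against -0.057 for other pairs. For genotype after ICH the averages were -0.144 and 0.079, and for ICH against sham in CKO mice -0.006 and 0.003. These values do not settle whether the numbers pair mice.

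With the replicate block, the 7 genes higher after ICH in CKO mice became 4, related genes lower in fl/fl mice went from 5 to 10, all genes lower in CKO mice from 1463 to 853, and in the interaction all genes higher from 2 to 1 and lower from 1 to 0; Mylk passed in fl/fl mice (adjusted p = 0.0145, edgeR). With DESeq2, related genes lower were 9 in fl/fl and 12 in CKO mice, against 5 in each, and all genes lower in CKO mice 3541. For genotype after ICH it gave 1 of the 10 genes lower, 2 related genes higher and 6 lower, and 255 genes higher and 323 lower, in sham 11 higher and 139 lower, and in the interaction 1 of the 10 genes lower, 1 related gene higher and 2 lower, and 183 genes higher and 83 lower. The fit over all 12 libraries gave 8 related and 2496 genes lower after ICH in CKO mice, and for genotype after ICH 1 of the 10 genes and 4 related genes lower with 123 genes higher and 192 lower. Requiring 10 counts in every library left 1 gene lower in sham and 1 higher in the interaction.

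Leaving out 1 library gave these ranges. After ICH in fl/fl mice, 5 to 8 of the 10 genes were higher, 19 to 30 related genes higher and 3 to 12 lower, and 2561 to 4310 genes higher and 1402 to 3852 lower. After ICH in CKO mice the ranges were 0 to 9, 0 to 25, 0 to 18, 0 to 5197 and 0 to 4889 in that order. For genotype after ICH, 0 to 1 genes were higher. In sham, 0 to 7 of the 10 genes were lower, 0 to 11 related genes higher and 0 to 12 lower, and 0 to 1541 genes higher and 0 to 1351 lower. In the interaction, 0 to 1 of the 10 genes were lower, 0 to 1 related genes higher and 0 to 1 lower, and 0 to 239 genes higher and 0 to 106 lower. Some signs turned, in each case without 1 library: Myh11 after ICH in fl/fl mice ranged from -0.090 to 0.461, Pdgfrb by genotype from -0.063 to 0.619 after ICH and from -0.156 to 0.014 in sham. In the interaction Acta2 ranged from -0.927 to 0.0024, Mylk from -0.091 to 0.418 (also -0.024 and -0.016), Des from -0.602 to 0.257 (also 0.075), Pdgfrb from -0.049 to 0.631, Pdgfa from -0.351 to 0.159 and Pdgfc from -0.134 to 0.336 (also -0.063). The cause was not tested.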
